A study of Mus musculus with 4 samples.

Results

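Btg1, Btg2, Btg3, Tob1 and Tob2 encode antiproliferative proteins of the BTG/Tob family, and their transcripts were read on 4 Affymetrix arrays hybridised with RNA from mouse bone marrow. The members were chosen by name: every probe set whose only gene symbol in the platform annotation is 1 of these 5. This gave 4 probe sets, 1 each for Btg1, Btg2, Tob1 and Tob2, among the 28939 probe sets tested and the 19938 genes they name. Both probe sets that list Btg3 also list Gm7334, so their signal belongs to no single gene and Btg3 is not analysed here. No measured value enters that rule, but the family was proposed with the difference of Btg2 between knockout and wild type on these same arrays known. The values of its members are therefore given as a description, and no test supports them.

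The arrays held Klf7-/- cells (KLF7 KO in the labels, replicates 1 and 2, called knockout) and Klf7+/+ cells (replicates 1 and 2, called wild type). All came from the KLS gate (Lin- c-Kit+ Sca-1+), which selects blood stem cells and early progenitors, from C57Bl/6 chimeric mice made with fetal liver cells so that the marrow mixed both genotypes. The ages, the number of mice or donor embryos behind an array and the part of Klf7 that was deleted are not given in the sources used here. The spread between arrays of a group may thus be technical, and the number of arrays limits every value.

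BTG and Tob proteins share an N-terminal domain that binds CNOT7 and CNOT8, which are among the catalytic subunits of the CCR4-NOT complex. This complex shortens the poly(A) tails of mRNAs. Shortened mRNAs are then decapped and degraded from the 5′ end, so these proteins act as adaptors that speed mRNA turnover. BTG2 is a target of p53 and also responds quickly to growth factors. In mouse T cells, Btg1 and Btg2 together help to keep cells quiescent, and Tob1 restrains T cell activation.

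The expression of Kit, the c-Kit receptor gene used in the sort, stood at 10.12 and 9.92 (log2 intensity) in knockout, against 9.55 and 9.71 in wild type, and Cd34 and Flt3 also lay above 9 on every array. Ly6a, the Sca-1 gene, had no probe set of its own in the annotation used. Klf7 itself was not lower in knockout, at 6.59 and 6.18 against 5.95 and 6.10 in wild type, and a probe set outside the deleted part would check nothing. Xist was the only probe set past an adjusted p of 0.05 in limma (1 of 28939, 0.00346% of probe sets), at 11.76 and 11.58 in knockout, against 5.24 and 4.80 in wild type. The Y-linked genes Eif2s3y, Uty and Kdm5d lay the other way, at -4.58, -2.88 and -1.63 without overlap, so genotype and the sex of the donors cannot be told apart in any difference below. Zfy1 and Usp9y, also Y-linked, were dim (means of 2.91 and 2.76) and differed by 0.09 and -0.05 with overlap. At an unadjusted p under 0.05, 1450 probe sets passed (5.01%).

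Btg2 read lower on both knockout arrays, and the other measured members overlapped between the genotypes. The Btg2 probe set (10357875, gene on chromosome 1) read 356.3 and 509.3 intensity units in knockout, against 1031 and 783.3 in wild type. On the log2 scale these are 8.48 and 8.99 in knockout, against 10.01 and 9.61 in wild type. Both knockout arrays lay below both wild-type arrays. The nearest arrays of the 2 groups were 0.62 apart, whereas the knockout arrays were 0.52 from each other and the wild-type arrays 0.40. The difference was -1.08 ± 0.26 on the log2 scale (moderated SE, n = 2 per group; 95% confidence interval -1.77 to -0.39), which is 0.474 of the wild-type level. It stood at -0.82 without knockout replicate 1 and at -1.33 without knockout replicate 2. Sorted cells were measured in bulk, so fewer cells that express Btg2 and less Btg2 RNA per cell cannot be told apart.

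Btg1, on chromosome 10, is the closest relative of Btg2, and its probe set (10365971) read 6.05 and 6.30 in knockout, against 6.77 and 6.28 in wild type (log2 intensity). Wild-type replicate 1 was the high array, and the other 3 lay within 0.245 of each other. The difference was -0.34 ± 0.23 (SE, n = 2 per group; interval -0.96 to 0.27). It rested on that array and stood at -0.10 without it.

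Tob1, on chromosome 11, encodes 1 of the 2 longer members, whose extended C-terminal part binds the cytoplasmic poly(A) binding protein. Its probe set (10380381) read 7.61 and 7.52 in knockout, against 7.68 and 6.88 in wild type (log2 intensity). Here wild-type replicate 2 was the low array, and wild-type replicate 1 lay above both knockout arrays. The difference of 0.28 ± 0.30 (SE, n = 2 per group; interval -0.52 to 1.08) became -0.12 without wild-type replicate 2 and 0.68 without wild-type replicate 1. No direction can be given for Tob1.

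Tob2, on chromosome 15, is the other long member and the steadiest of the 4. Its probe set (10430770) read 7.50 and 7.59 in knockout, against 7.69 and 7.53 in wild type (log2 intensity). The 4 arrays interleaved, and the difference was -0.07 ± 0.16 (SE, n = 2 per group; interval -0.49 to 0.36). That interval leaves room for a change of about the size of the Btg1 difference in either direction.

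**Figure D1:**
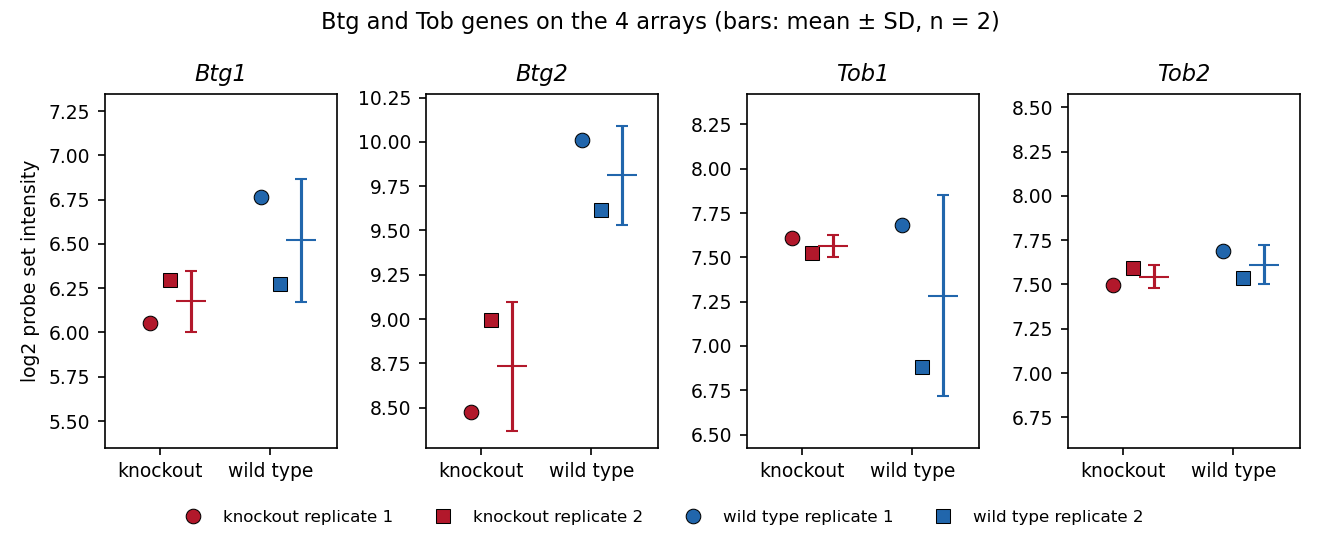
Log2 probe set intensity of Btg1, Btg2, Tob1 and Tob2 on the 2 knockout arrays (red) and the 2 wild-type arrays (blue); circles are replicate 1, squares replicate 2, and bars give mean ± SD (n = 2). All panels span the same range on their own axis: Btg2 is separated by 0.62 between its nearest knockout and wild-type arrays, while the other 3 genes overlap.

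Across the family, wild-type replicate 1 gave the highest reading of each of the 4 genes. After centring each gene on its mean over the 4 arrays, that array stood at 0.42 for Btg1, 0.74 for Btg2, 0.26 for Tob1 and 0.11 for Tob2. The lowest array was knockout replicate 1 for Btg1, Btg2 and Tob2, and wild-type replicate 2 for Tob1. Of the 4 genes, 3 had a lower mean in knockout, where 55.0% of all genes did, and in Btg2 alone the groups did not overlap.

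In the limma fit over all probe sets none of the 4 members was past the threshold, with adjusted p of 0.945 for Btg2, 0.953 for Btg1, 0.966 for Tob1 and 0.996 for Tob2. The fit had 2 residual degrees of freedom. In simulated data of 28939 probe sets with 200 changed, it called a 2-fold change in 0.299% of cases. A 4-fold change was called in 26.6% and a 16-fold change in 65.8%. A gene or list with nothing past the threshold is thus not shown to be unchanged. Of the 4, 1 was 2-fold apart without overlap between the groups, a description met by 243 genes or 1.22% of all (146 higher in knockout and 97, or 0.487%, lower). Groups that do not overlap at any size occurred in 33.2% of genes, 18.6% lower and 14.5% higher in knockout. Since the choice of the family used this contrast, nothing is read from its count. Btg2 was the 87th most negative of 19938 differences.

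**Figure D2:**
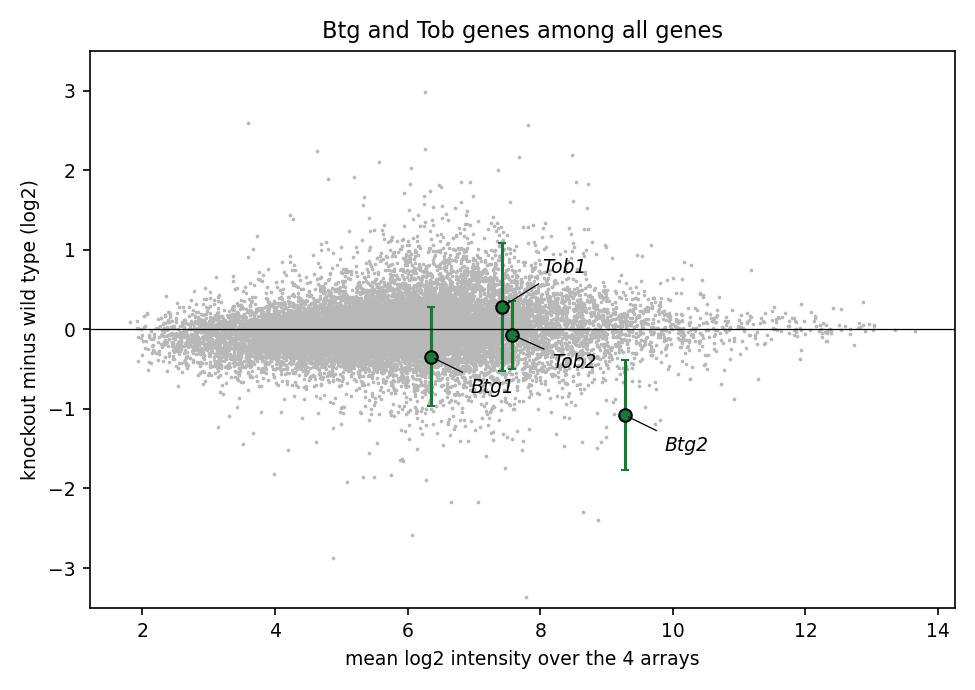
Difference between knockout and wild type (log2) against the mean log2 intensity over the 4 arrays, 1 grey point per gene, with the 4 measured members in green and their 95% confidence intervals; 3 genes outside ±3.5 are not shown. Btg2 lies at -1.08 below the body of genes of its level, and Btg1, Tob1 and Tob2 lie within it.

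The regions before the start sites of Btg2 and Btg1 are shown because KLF proteins are known to bind GC-rich elements, the GC box (GGGCGG) and the CACCC box (CACCC). These close relatives were taken since the genotypes overlapped for Btg1 and not for Btg2. Their differences were not tested against each other. Each run is the 250 bases before the RefSeq start site (GRCm38.p6), 5′ to 3′ on the gene's strand, with GC boxes on either strand and the cAMP response element (TGACGTCA) in capitals. Btg2 lies at chr1:134079156-134079405 on the minus strand and Btg1 at chr10:96616751-96617000 on the plus strand.
Btg2: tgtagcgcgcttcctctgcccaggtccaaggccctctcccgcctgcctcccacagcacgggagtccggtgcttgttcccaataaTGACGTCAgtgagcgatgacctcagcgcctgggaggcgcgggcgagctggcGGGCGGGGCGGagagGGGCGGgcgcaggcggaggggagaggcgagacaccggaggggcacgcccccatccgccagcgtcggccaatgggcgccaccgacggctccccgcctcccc
Btg1: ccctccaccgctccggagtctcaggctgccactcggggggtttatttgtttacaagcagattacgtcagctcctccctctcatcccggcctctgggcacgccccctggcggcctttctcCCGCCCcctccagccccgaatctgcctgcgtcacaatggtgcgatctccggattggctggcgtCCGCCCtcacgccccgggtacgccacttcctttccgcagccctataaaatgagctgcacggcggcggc

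The Btg2 window held 3 GC boxes, which begin 115, 110 and 100 bases before the start site, and the first and second share 1 base. The Btg1 window held 2, at 131 and 68 bases, both on the opposite strand. The Tob1 and Tob2 windows held 3 and 2, so all 4 measured members carry the element, which occurs in 32.7% of the 32851 windows of the same length. Btg3, whose expression is not analysed, had a window with 0 GC boxes (chr16:78377182-78377431) and a window with 2 (chr16:78376811-78377060). No CACCC box was found before Btg1 or Btg2, against 3 before Tob1 and 2 before Tob2, and 52% of windows hold at least 1. Base composition is shared by these counts: G and C made up 73.2% of the Btg2 window and 65.2% of the Btg1 window. The full cAMP response element was found before Btg2 only, 166 bases from its start site, and in 1.55% of all windows. Its short form TGACG, which the full element contains, also occurred in the Btg1 window (2 matches) and the Tob1 window (1 match), and in 17.8% of windows. The sequence TATAAA stood 26 bases before the Btg1 start site and also before Tob1, and in 12.4% of windows. Neither the SRF CArG box (1.47% of windows) nor the p53 response element (0.0639%) was matched in the windows of the 4 measured members. These matches are letters only, and binding was not measured.

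The deadenylase that the BTG and Tob proteins recruit was described by its subunit genes. Of 12 subunits of CCR4-NOT and its partners, 9 were higher and 3 lower in knockout, 0 passed the limma threshold and 0 had an unadjusted p under 0.05. Their median difference was 0.11 on the log2 scale, against -0.03 over all genes, and 0.25 without wild-type replicate 1. Cnot4, a ubiquitin ligase of the complex, had the largest difference, 0.49 ± 0.46, with 8.01 and 6.69 in knockout, against 6.75 and 6.96 in wild type, and overlapped between the genotypes. Cnot7, a catalytic subunit bound by the family, read 9.01 and 9.62 in knockout, against 9.11 and 9.33 in wild type (log2 intensity). Cnot8, its close copy, read 8.24 and 8.56 in knockout, against 8.52 and 8.06 in wild type, and both genes overlapped between the genotypes. Of the 12, only Cnot11, a regulatory subunit, was without overlap, where 33.2% of all genes were. Its difference was 0.13 ± 0.16, and 0.079 without wild-type replicate 2.

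Among 10 other genes of tail shortening and poly(A) binding, 9 were measured, 7 higher and 2 lower, with a median difference of 0.22 and 0 past the threshold. Pabpc1, the cytoplasmic poly(A) binding protein gene, differed by 0.04 ± 0.16. Pde12, a deadenylase of mitochondria, differed by -0.48 ± 0.21, Pabpn1, the nuclear poly(A) binding protein gene, by 0.23 ± 0.16, and the circadian gene Noct by -0.15 ± 0.15 (SE, n = 2 per group). Pde12 stood at -0.26 without knockout replicate 2. Dropping single arrays moved the list's median to between 0.00434, without wild-type replicate 1, and 0.15.

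Genes of decapping and 5′ decay, the steps after deadenylation, ran from -0.55 to 0.89 in their differences. None of the 10 passed the threshold in limma, 4 had an unadjusted p under 0.05 (5.01% over all probe sets), and 4 lay higher and 1 lower without overlap, where 14.5% and 18.6% of all genes did. Ddx6, the RNA helicase that links CCR4-NOT to decapping, read 10.61 and 10.76 in knockout, against 9.78 and 9.97 in wild type (log2 intensity). Both knockout arrays were above both wild-type arrays, by a difference of 0.81 ± 0.17 with a limma adjusted p of 0.945. Xrn1, the 5′ exonuclease, read 7.48 and 7.05 in knockout, against 6.51 and 6.24 in wild type, which is a difference of 0.89 ± 0.22. Patl1, a scaffold of the decapping complex, read 7.79 and 7.85 in knockout, against 7.31 and 6.91 in wild type, which is a difference of 0.71 ± 0.20. Over the 13 alternatives the difference ran between 0.72 and 0.90 for Ddx6, 0.67 and 1.10 for Xrn1 and 0.51 and 0.91 for Patl1. These 3 genes were named for groups that do not overlap, so dropping an array could not turn their sign. Several other settings left the differences unchanged by construction, so the kept sign says little.

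Lsm1, a decapping activator named after its values were seen, completed the 4 with a difference of 0.76 ± 0.24 (SE, n = 2 per group). Its mean of 5.39 (log2) lay below the median gene level. The decapping enzyme gene Dcp2 lay the other way, at 6.92 and 7.46 in knockout, against 7.72 and 7.76 in wild type, which is a difference of -0.55 ± 0.23; it too was named after its values were seen. The median of all 10 genes was 0.12, against -0.03 over all genes, and ran from -0.026 without knockout replicate 1 to 0.31 without wild-type replicate 1. Edc3, Dcp1a and Edc4 differed by 0.06, 0.09 and 0.14 and overlapped between the groups. Dcp1b and Dcps were lower in knockout, at -0.40 ± 0.51 and -0.34 ± 0.42, also with overlap.

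Other proteins that bind the family lay on both sides of 0. The 10 genes for the methyltransferase Prmt1, Hoxb9, the CPEB translation regulators and the BMP SMADs and Smad4 divided into 5 higher and 5 lower, with a median of -0.01 and 0 past the threshold. Prmt1, whose enzyme binds BTG1 and BTG2, differed by -0.29 ± 0.25 and overlapped between the groups. Of the 10, 1 was higher and 1 lower without overlap, where 14.5% and 18.6% of all genes were. Smad9, the lower, was the only such gene above the median gene level, at -0.17 ± 0.16, and -0.097 without wild-type replicate 1. The widest differences, both with overlap, were those of Cpeb2 at -0.47 ± 0.32 and Smad5 at 0.39 ± 0.30.

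**Figure D3:**
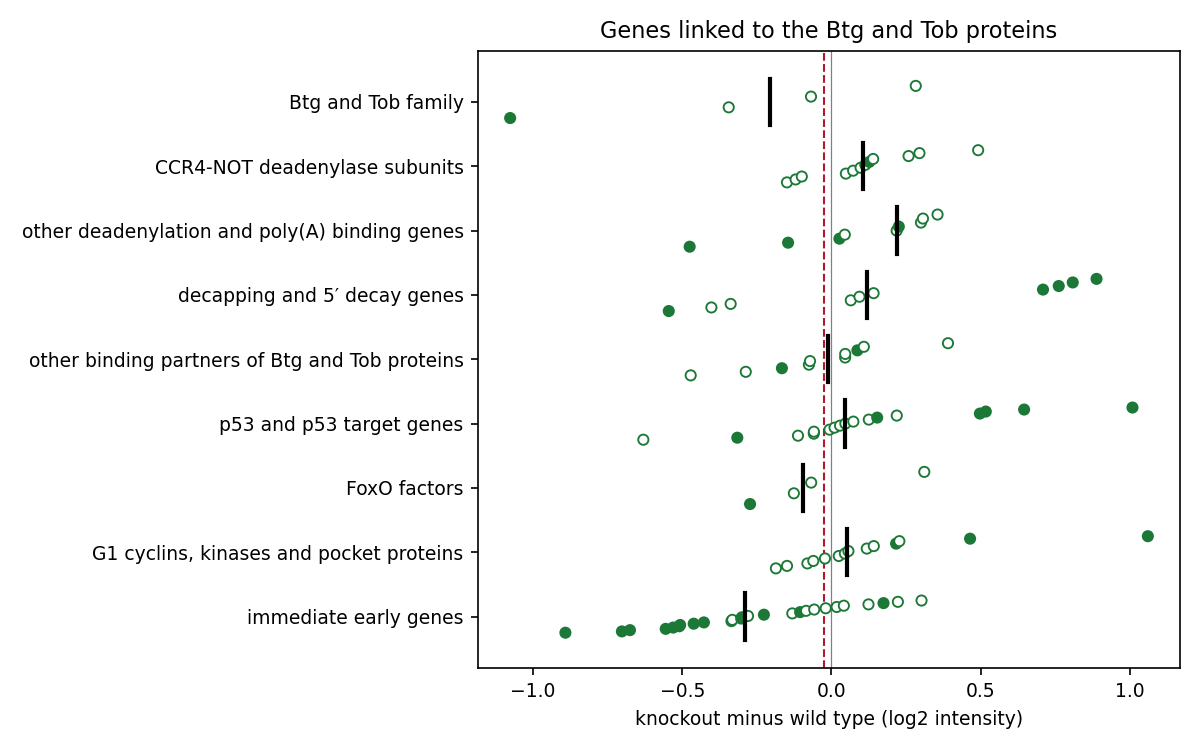
Difference between knockout and wild type (log2 intensity) for each measured gene of the lists linked to the BTG and Tob proteins, 1 point per gene, spread vertically only for legibility; filled points are genes whose arrays do not overlap between the genotypes, black bars are list medians and the dashed red line is the median of all genes (-0.03). Immediate early genes have the lowest median (-0.29), and 4 decapping genes stand between 0.71 and 0.89.

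Genes upstream and downstream of the family were described next. Of 20 p53 pathway genes 17 were measured, 11 higher and 6 lower in knockout, with a median of 0.05 and 0 past the threshold. Without overlap, 5 were higher and 1 lower, where 14.5% and 18.6% of all genes were. Among those expressed above the median gene and not overlapping, Trp53inp1 differed by 0.65 ± 0.28, the nucleotide reductase subunit gene Rrm2b by 0.52 ± 0.21 and the stress gene Sesn1 by 0.50 ± 0.20. Trp53inp1 stood at 0.32 without wild-type replicate 2, and Sesn1 at 0.30 without knockout replicate 1. The largest difference of the 17 was that of Plk2, below the median gene level, at 1.01 ± 0.32 without overlap. Other members lay the other way: the cyclin G1 gene Ccng1 at -0.63 ± 0.38, with overlap, and Zmat3, below the median gene level, at -0.32 ± 0.19 without overlap. Mdm2, the feedback inhibitor of p53, differed by 0.01 ± 0.22. The transcripts Trp53, Cdkn1a and Bax had no probe set of their own in the annotation used.

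The FoxO factors, which are known to activate Btg1, gave 1 higher and 3 lower of 4, with Foxo1 at 0.31 ± 0.24 and Foxo3 at -0.07 ± 0.16. Foxo1 stood at 0.10 without wild-type replicate 2. Of 14 G1 cyclins, kinases, E2F factors and pocket proteins, 9 were higher and 5 lower, with a median of 0.05 and 0 past the threshold. Ccnd1, the cyclin D1 gene that BTG2 is known to repress, read 6.69 and 6.74 in knockout, against 6.62 and 6.69 in wild type (log2 intensity), a difference of 0.06 ± 0.15. Without overlap, 3 of the 14 were higher and 0 lower, where 14.5% and 18.6% of all genes were. Among these 3, the pocket protein genes Rbl1 and Rb1 differed by 1.06 ± 0.52 and 0.46 ± 0.25. Rbl1 rested on a low wild-type replicate 2 and stood at 0.31 without it, and Rb1 stood at 0.18 without knockout replicate 1.

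Immediate early genes are induced within minutes of a stimulus, and Btg2 is often counted with them. Of 26 such genes, with Btg2 not among them, 20 were lower and 6 higher in knockout; 13 were lower without overlap, where 18.6% of all genes were, and 0 passed the threshold. The median difference was -0.29, and -0.16 without wild-type replicate 1. That this list lies low on these arrays was known when it was drawn up, so it is no independent support. Egr1, a zinc finger factor gene, read 8.29 and 8.81 in knockout, against 9.44 and 9.45 in wild type, which is a difference of -0.89 ± 0.23. Klf10 differed by -0.70 ± 0.19 and Ier2 by -0.68 ± 0.22 (SE, n = 2 per group). The summed intensity of the 26 genes was 7417 and 8464 in knockout, against 10305 and 9438 in wild type. It placed the arrays in the same order as Btg2, with knockout replicate 1 lowest and wild-type replicate 1 highest. The part of cell handling or stimulation in the Btg2 difference was not tested.

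**Figure D4:**
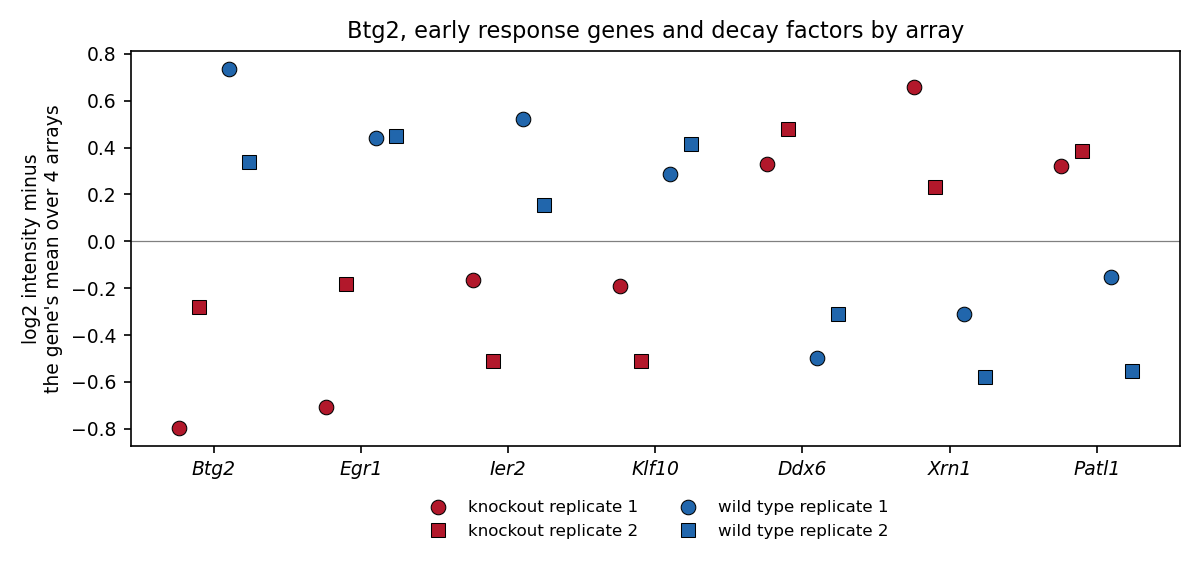
Log2 intensity of 7 genes on each array minus the gene's mean over the 4 arrays; red points are knockout, blue points wild type, circles replicate 1 and squares replicate 2. Btg2, Egr1, Ier2 and Klf10 lie below 0 in both knockout arrays and above 0 in both wild-type arrays, and Ddx6, Xrn1 and Patl1 lie the other way.

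Resting lymphocytes are known to express Btg1 and Tob1, and the Lin- gate is meant to remove them. Each of the 6 measured T cell markers had a lower mean in knockout, where 55.0% of all genes did, with no overlap for 2 (33.2% of all genes; Thy1, which some progenitors also carry, at -0.48 ± 0.19, and Cd3e at -0.10 ± 0.15), and their summed intensity was 281.9 and 302.8 in knockout, against 320.9 and 368.4 in wild type. Cd3d, Cd3g and Cd4 lay below the median gene level of 5.77 (log2) on average. The 5 B cell markers summed to 214.7 and 183.4 in knockout, against 211.4 and 207.9 in wild type, with Ms4a1 and Cd79a at means of 3.96 and 4.05, and 0 of 5 were without overlap. The 10 granulocyte and monocyte markers summed to 3056 and 1078 in knockout, against 1446 and 2180 in wild type, so that the 2 knockout arrays lay at both ends. The 4 erythroid markers summed to 194.7 and 253.6 in knockout, against 199.0 and 212.9 in wild type. Of these 4, 2 were higher without overlap, where 14.5% of all genes were, and 2 were lower with overlap. The higher were Slc4a1, at 0.28 ± 0.16, and Alas2, below the median gene level, at 0.25 ± 0.20. No marker of these lists passed the threshold, and their part in the Btg2 difference was not tested.

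The markers of stem and progenitor cells follow for comparison. Of 10 measured stem and progenitor markers, 6 were higher and 1 lower without overlap, where 14.5% and 18.6% of all genes were, and 0 were past the threshold. The median was 0.18, and 0.061 without wild-type replicate 2 or 0.22 without wild-type replicate 1. Cd34 read 10.24 and 10.22 in knockout, against 9.65 and 9.57 in wild type (log2 intensity), a difference of 0.62 ± 0.15, and Flt3 differed by 0.48 ± 0.19. Procr, Tek and Slamf1 differed by 0.01, -0.04 and 0.08. Mecom, which encodes a transcription factor of stem cells, differed by -0.71 ± 0.25, although its other probe set gave 0.54. The part of a different mix of progenitors in the Btg2 difference was not tested.

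The genes whose 4 readings were most like those of a member were found by the distance between centred log2 values over the 4 arrays, among 9968 genes above the median level. For Btg2 the nearest was Fbxo4, an F-box protein gene, at a distance of 0.03, with 5.01 and 5.50 in knockout, against 6.56 and 6.13 in wild type (log2 intensity). Then followed the methyltransferase gene Etfbkmt at 0.23, the insulin-degrading enzyme gene Ide at 0.28, 4930597O21Rik at 0.29 and Fahd1 at 0.30. Their differences ran from -1.20 to -0.81. For Btg1 the nearest were the heme oxygenase gene Hmox2 at 0.02, Mta3 at 0.02, Tns3 at 0.06, Nt5dc1 at 0.06 and Nop2 at 0.07, all with wild-type replicate 1 as the highest array. With 4 points a close match is easily had, and these distances are a description only.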

How the data were processed

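The authors deposited 1 table of linear intensities for the 4 arrays. The submitters' processing notes list RMA and Affymetrix Expression Console, with no version or setting. All values were turned to log2. Array medians lay between 51.0 and 52.3, and no further normalization was applied. The 6615 probe sets that precede the first annotated one were assumed to be controls and left out of 35554. Symbols came from the 2016 platform annotation (21789 probe sets with 1 symbol, 1621 with several, 5529 unlisted), updated through Entrez IDs with RefSeq for GRCm38.p6 (21698 matched). For 999 genes with more than 1 probe set, the brightest on average was used.

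Knockout minus wild type was fitted with limma 3.58.1 in R 4.3.3 (lmFit, eBayes, two-sided, Benjamini-Hochberg over 28939 probe sets, threshold 0.05), after tests on simulated data. Adjusted p-values come from this fit. Alternatives are in the closing section. Beside the members, the rule named Klf7 and, of each list, genes past the threshold or else up to 3 with the largest difference above the median level without overlap (with none such, the largest above that level); for Btg1 and Btg2 it named the 5 genes nearest in pattern. Genes named for their role (Cnot7, Cnot8, Pabpc1, Prmt1, Mdm2, Foxo3, Ccnd1, Kit and markers) or to show a list's spread (Cnot4, Cpeb2, Smad5, Plk2, Ccng1, Zmat3, Edc3, Dcp1a, Edc4, Dcp1b, Dcps and the Y-linked genes) fall outside it and were chosen after their values were seen. Members and lists were chosen with earlier results of these data known. Replicate numbers do not state a pairing, and p-values measure the spread between these arrays, which may be technical.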

Additional observations from a re-analysis of the deposited data

How the results depend on the processing

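Of 52 values of the 4 members under alternatives, 50 kept their direction and side of the threshold and 2 turned: Tob2 to 0.00915 without wild-type replicate 1 and Tob1 to -0.12 without wild-type replicate 2. No member was past the threshold at the start, so keeping its side says little. Each member has 1 probe set, so many alternatives leave its difference the same by construction. These are the filter on dim probe sets, both intensity trends, the replicate block, the leading probe sets kept and the mean over a gene's probe sets. Dropping an array cannot turn Btg2 either, since its groups do not overlap, so the count of 50 overstates how steady the members are. When single arrays were dropped, which takes the remaining array of that genotype to vary as the other genotype does, Btg2 ran from -1.33 to -0.82, Btg1 from -0.59 to -0.10, Tob1 from -0.12 to 0.68 and Tob2 from -0.15 to 0.01. Under the other alternatives Btg2 ran from -1.11 to -1.02, and over all of them its adjusted p was 0.694 to 1.00. The count of 1 probe set past the threshold became 0 with quantile normalization again, an offset of 32, an intensity trend, that trend with robust estimation, the leading probe sets kept and the replicate block, and ran from 0 to 0 when single arrays were dropped; the cause was not tested. With the replicate block the members' differences are the same by construction and their adjusted p was 0.881 to 0.982; deviations of same-numbered arrays correlated at 0.029 across genes, so the numbers were not taken to pair the arrays. The 243 genes that lay 2-fold apart without overlap became 99 at the offset of 32, 1024 at 1.5-fold, and 491 to 598 when single arrays were dropped, since fewer arrays overlap less. Of 182 medians of lists, 15 changed sign, 11 of them by less than the SD between replicates of that median. The other 4 were sex-linked genes at 2.51 with dim probe sets left out, B cell markers at 0.048 with cyclic loess and 0.045 without knockout replicate 2 (range over dropped arrays -0.070 to 0.045), and FoxO factors at 0.076 without knockout replicate 1 (range -0.23 to 0.076). Of the other 37 single genes named by the rule, Cd79b turned, to 0.12 without knockout replicate 2 (range -0.47 to 0.12), and Xist lost its call in 10 alternatives, while its difference stayed between 5.67 and 6.87. Detection limits were not analysed here, so dim readings have no known floor.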
